A study of Mus musculus with 3 samples.

Results

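The tw18/tw18 library was compared with the wild-type library over every gene with an FPKM (fragments per kilobase of transcript, scaled to the mapped fragments of the library) of at least 1 in either of them, which left 12917 of the 23421 genes in the table. The labels give the strain as 129/SvEv, and the RNA came from the embryo proper at embryonic day 6.5, that is the epiblast with the visceral endoderm around it, of embryos from crosses between tw18/+ parents. There was 1 library each from wild-type, tw18/+ and tw18/tw18 embryos, so there are no replicates, no test was made, and every difference below is a difference between single libraries whose embryo number the sources used here do not give. The tw18 chromosome is a mouse t haplotype, a variant form of proximal chromosome 17, and carries a large deletion described as spanning Ppp2r1a, the gene of the scaffold subunit of protein phosphatase 2A, together with a block of zinc finger genes; embryos homozygous for it die. A gene is called higher when its FPKM in tw18/tw18 was at least 2-fold that of wild type (log2 ratio of at least 1) and lower at the reverse, and medians of gene groups are differences of log2(FPKM + 1), tw18/tw18 minus wild type.

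At this stage the epiblast is a cup of pluripotent cells enclosed by visceral endoderm. Nodal, WNT and FGF signals set up the primitive streak on its posterior side, where T (Brachyury) and other transcription factors start mesoderm formation, while the anterior visceral endoderm secretes inhibitors of Nodal and WNT on the other side. Pluripotent epiblast cells divide fast and rely on glycolysis, and the embryo lies within extra-embryonic tissue of its own and the decidua of the mother, which is rich in stroma, vessels and matrix.

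Of the 12917 genes, 1946 were higher in tw18/tw18 (15.1%) and 896 were lower (6.94%). The median difference over all genes was -0.01. Most of these genes were weakly expressed, since no more than 468 of the higher genes reached an FPKM of 10 in tw18/tw18. Of the lower genes 258 had an FPKM under 2 even in wild type. Past 4-fold lay 537 higher and 210 lower genes with a value above 0 in both libraries. A further 207 higher genes were listed at 0 in wild type and 85 lower genes at 0 in tw18/tw18. The threshold cuts through a dense part of the distribution, with 209 genes at log2 ratios between 1 and 1.1 and 228 between 0.9 and 1.

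**Figure D1:**
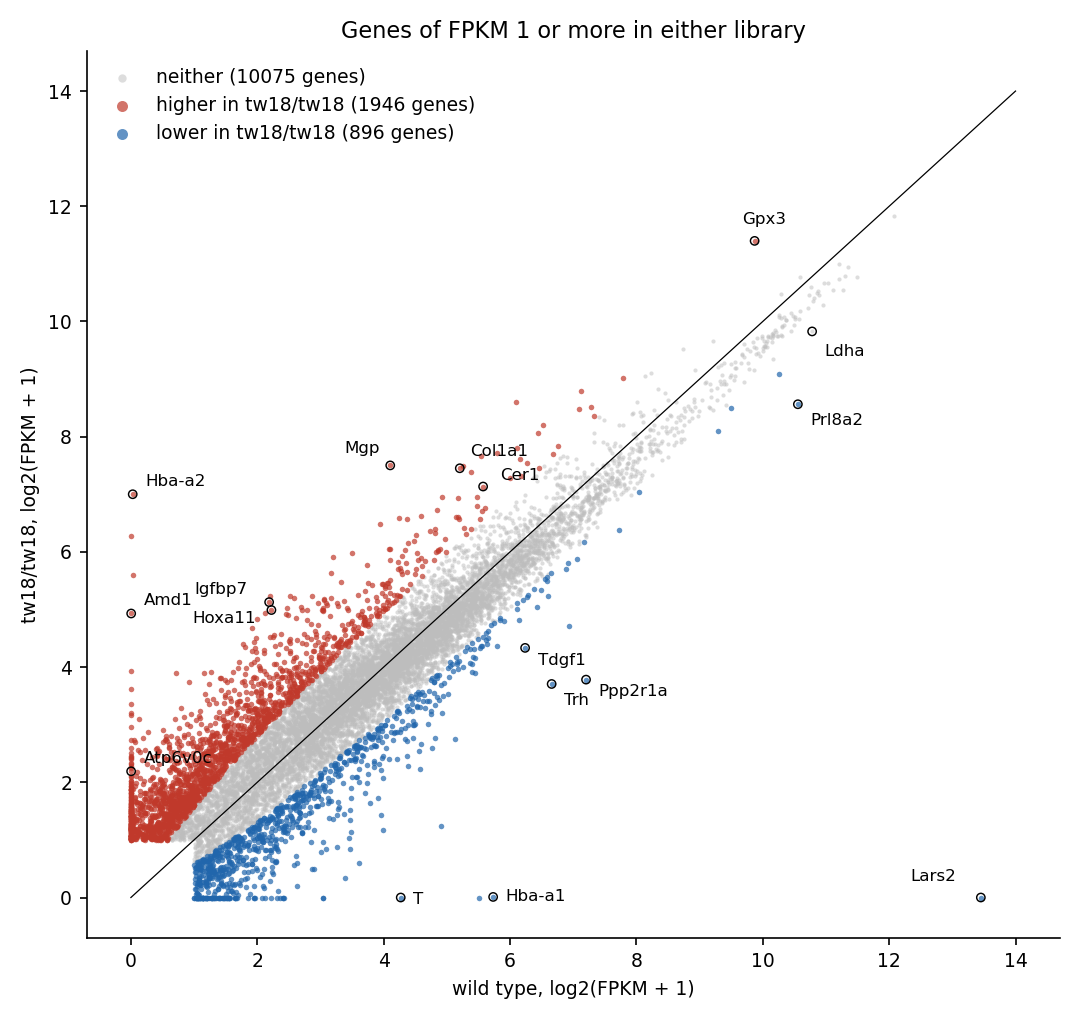
Each point is 1 of the 12917 genes, with log2(FPKM + 1) in wild type on the x axis and the same in tw18/tw18 on the y axis. Red points are the 1946 genes at least 2-fold higher in tw18/tw18, blue points the 896 at least 2-fold lower, and the line marks equal values. Lars2, T and Hba-a1 lie on or near the x axis at the bottom, and the most abundant grey genes lie just under the line.

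Depth, read from the steps between the low FPKM values, was about 13800000 fragments in wild type, 19300000 in tw18/+ and 19100000 in tw18/tw18, so that 3 fragments on a transcript of 1 kb correspond to 0.218, 0.155 and 0.157 FPKM. Standard errors given below cover counting error only, since the spread between embryos is unknown. The expression profiles also differed in shape. The FPKM of all genes summed to 444064 in wild type, 455078 in tw18/+ and 383409 in tw18/tw18, and the 100 most abundant genes held 31.4%, 31.9% and 26.0% of the sum. The share of higher genes went from 42.7% among genes with a mean FPKM under 2 to 2.56% among those of at least 200, and the median difference went from 0.37 to -0.37 over the same range. Scaling both libraries to the same FPKM sum adds 0.21 to every log2 ratio, and where that turns a direction given below it is said there. The share called thus depended on abundance, and beside the counts of the main groups stands the percentage called among all genes of like FPKM.

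**Figure D2:**
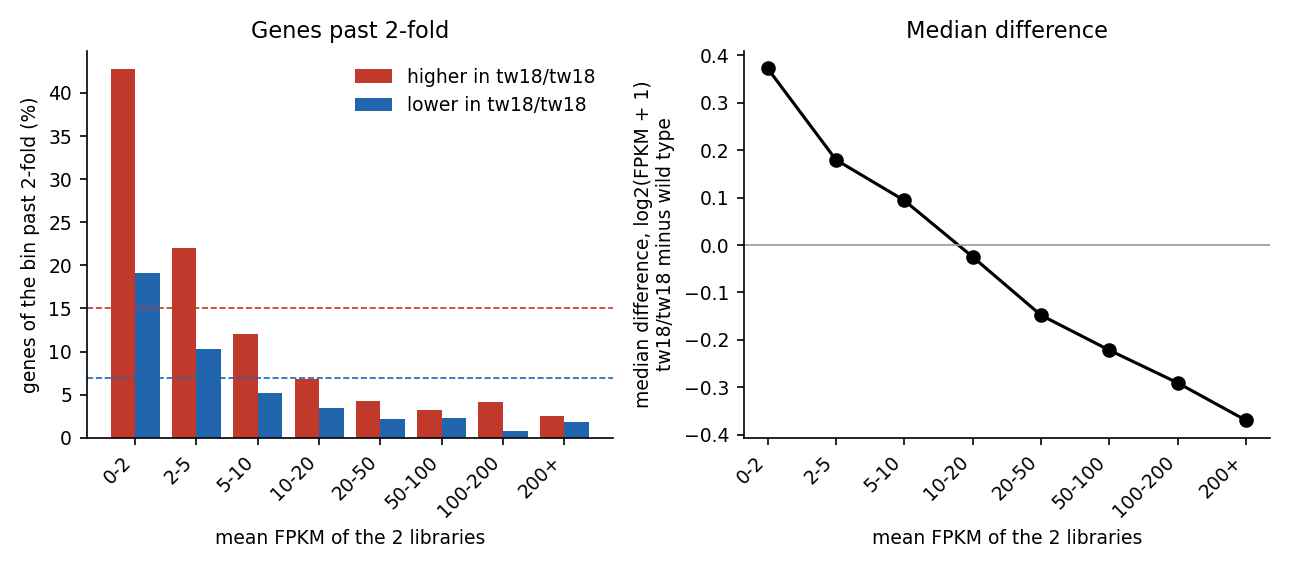
Genes are binned by their mean FPKM in wild type and tw18/tw18 (x axis). The left panel gives the percentage of each bin at least 2-fold higher (red) or lower (blue) in tw18/tw18, with dashed lines at 15.1% and 6.94%, the right panel the median difference of log2(FPKM + 1). The median passes from 0.37 in the weakest bin to -0.37 in the most abundant one.

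Ppp2r1a and its neighbours on chromosome 17 were nearly all lower in tw18/tw18, and tw18/+ lay between the others for the genes named first. Ppp2r1a itself (GRCm38, chr17:20945311-20965916, forward strand) was at 146 FPKM in wild type, 81.7 in tw18/+ and 12.8 in tw18/tw18, a log2 ratio of -3.52 with a counting standard error of 0.063. The tw18/tw18 value corresponds to about 588 fragments, and the source of these reads was not tested. The stretch from Ppp2r1a to Zfp40, chr17:20945311-23193252, was set after its values were seen and held 23 of the genes compared. Of these 21 were lower and none higher, against 6.94% of all genes lower. All 17 of its genes in the list of Zfp zinc finger genes were lower, with FPKM in tw18/tw18 between 0.0807 and 1.26. Zfp51, for example, was at 9.45 FPKM in wild type, 3.23 in tw18/+ and 0.261 in tw18/tw18, and Zfp946 at 14.8 FPKM in wild type, 7.77 in tw18/+ and 1.25 in tw18/tw18. Zfp51 and Zfp946 code for zinc finger proteins of the KRAB type. The 2 genes of the stretch past no threshold were Gm4944, at 10.7 FPKM in wild type, 7.52 in tw18/+ and 5.55 in tw18/tw18, and Vmn2r-ps129, at 1.54 FPKM in wild type, 1.90 in tw18/+ and 1.27 in tw18/tw18. Across 242 windows of 5 Mb with at least 20 genes, the window from 20 to 25 Mb of chromosome 17 had the highest share of lower genes, 25 of 81. Between 5 and 10 Mb of the same chromosome 10 of 28 genes were higher, the second highest share of higher genes of any window. They include Rsph3b, which codes for a radial spoke protein of cilia, at 2.96 FPKM in wild type, 12.8 in tw18/+ and 21.6 in tw18/tw18, and Rnaset2b, which codes for a ribonuclease, at 10.3 FPKM in wild type, 23.7 in tw18/+ and 21.9 in tw18/tw18. Rsph3b and Rnaset2b each have a near-identical neighbour (Rsph3a at 2.96, 8.599 and 18.1 FPKM in wild type, tw18/+ and tw18/tw18, and Rnaset2a at 12.3, 29.2 and 25.8 FPKM), so that reads may have been split between the copies. In the remaining text 3 values given together follow this same order of wild type, tw18/+ and tw18/tw18.

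Of the 5 genes that mark the comparison, 2 were lower and 3 higher. T, the transcription factor of the primitive streak, was at 18.3 and 6.16 FPKM in wild type and tw18/+ and was listed at 0 in tw18/tw18. Tdgf1, the Nodal co-receptor Cripto, was at 74.5 FPKM in wild type, 72.0 in tw18/+ and 19.2 in tw18/tw18. Cer1, a secreted inhibitor of Nodal, BMP and WNT from the anterior visceral endoderm, was at 46.6 FPKM in wild type, 61.3 in tw18/+ and 139.5 in tw18/tw18. For both of these the wild-type and tw18/+ values lay close together and the tw18/tw18 value apart. Mgp, a matrix protein that blocks mineralisation, was at 16.2 FPKM in wild type, 43.03 in tw18/+ and 180.2 in tw18/tw18, 11.1-fold higher, with the tw18/+ value between. Col1a1, a chain of type I collagen, was at 35.9 FPKM in wild type, 32.0 in tw18/+ and 174 in tw18/tw18.

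The bases before the annotated start of 4 of the genes are given here, because T is the streak gene listed at 0, Trh had the most negative difference of log2(FPKM + 1) in the secreted groups, Gpx3 had the widest positive difference of FPKM of all genes and Hoxa11 had the largest difference in the Hox group. Each is the 250 bases upstream of the start that RefSeq annotates, 5′ to 3′ on the strand of the gene, on GRCm38.p6, and 9542 of the 12917 genes had such a sequence. They lie at chr17:8434173-8434422 (forward), chr6:92244651-92244900 (reverse), chr11:54902604-54902853 (forward) and chr6:52245811-52246060 (reverse). Capitals mark the 4 motifs searched for on both strands. The TATA box letters, TATAAA, occur in 12.97% of the 27025 promoters of this length in the table. The letters of the CCAAT box occur in 34.5% of them and those of the GC box, GGGCGG, in 32.9%. The letters searched for TCF/LEF, which is the nuclear end of the WNT pathway, were CTTTGA and occur in 14.1%.
T: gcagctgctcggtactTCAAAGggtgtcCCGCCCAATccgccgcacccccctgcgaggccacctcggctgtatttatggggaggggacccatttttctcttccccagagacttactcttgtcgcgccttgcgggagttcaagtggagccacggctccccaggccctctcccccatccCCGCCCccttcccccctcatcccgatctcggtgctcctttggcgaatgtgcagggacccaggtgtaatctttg
Trh: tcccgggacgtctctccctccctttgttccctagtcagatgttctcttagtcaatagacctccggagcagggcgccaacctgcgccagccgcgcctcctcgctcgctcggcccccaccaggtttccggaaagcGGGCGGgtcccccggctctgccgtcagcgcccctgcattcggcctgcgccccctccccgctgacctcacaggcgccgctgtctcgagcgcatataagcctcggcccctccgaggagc
Gpx3: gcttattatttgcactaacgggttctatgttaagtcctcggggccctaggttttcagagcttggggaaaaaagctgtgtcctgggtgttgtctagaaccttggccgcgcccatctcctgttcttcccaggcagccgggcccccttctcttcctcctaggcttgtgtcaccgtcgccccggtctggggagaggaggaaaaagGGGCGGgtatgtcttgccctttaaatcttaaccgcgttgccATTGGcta
Hoxa11: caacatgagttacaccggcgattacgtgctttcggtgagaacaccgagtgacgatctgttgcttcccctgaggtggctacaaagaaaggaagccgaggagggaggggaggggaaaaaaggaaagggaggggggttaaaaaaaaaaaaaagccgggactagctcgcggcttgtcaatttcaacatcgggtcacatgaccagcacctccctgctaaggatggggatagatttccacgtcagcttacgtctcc
Upstream of T stand the TCF/LEF letters on the opposite strand near the far end, a CCAAT that overlaps a GC box, and a second GC box 73 bases before the start. Trh and Gpx3 each hold a GC box, 117 and 49 bases before the start, and Gpx3 also a CCAAT on the opposite strand. No match to the 4 motifs was found in the window of Hoxa11. These matches describe the letters and say nothing of binding.

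Markers of the cell types that a dissected embryo could hold were read next, as whole lists. All 21 epiblast genes were measured, none was higher and 7 were lower, where 2.65% of genes of like FPKM were lower and 5 of the 21 were lower at the same FPKM sum. The median was -0.53, with a summed level of 2494, 2644 and 1449.7 FPKM. Of the 12 measured genes of the primitive streak and nascent mesoderm, 8 were lower and none higher, against 6.44% lower among genes of like FPKM, and 6 were lower at the same FPKM sum. The 22 visceral endoderm genes held none past 2-fold in either direction and 6 higher at the same FPKM sum, and 21 of them had a positive difference (median 0.46) and the list summed to 2134, 2123 and 3124 FPKM. Of the 11 anterior visceral endoderm genes 5 were higher and 2 lower (7.47% and 3.72% of genes of like FPKM), with a median of 0.19. At the same FPKM sum 5 were higher and 0 lower. The lower ones were Lefty1, at 13.3, 12.9 and 6.11 FPKM, and Frzb, and Foxa2 and Dkk1 were near level. In the neuroectoderm list, which shares Pou3f1 and Otx2 with the epiblast list, 1 of 8 was higher and 1 lower (13.1% and 6.07% of genes of like FPKM). Markers of both tissues of the embryo proper were thus present in all 3 libraries. In bulk samples fewer cells of a type and less RNA per cell cannot be told apart.

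Lists of tissues outside the embryo proper differed in their share of higher genes. Of the 19 stromal and fibroblast genes 15 were higher and none lower, against 13.99% higher among genes of like FPKM, and the list summed to 175, 223 and 762 FPKM. Parietal endoderm, which lays down the thick Reichert's membrane, had 11 of 16 genes higher (6.04% of genes of like FPKM) and none lower and summed to 609.8, 704 and 1450.5 FPKM. In the extra-embryonic ectoderm list 12 of 17 were higher (20.1% of genes of like FPKM) and none lower, with sums of 117, 108 and 162 FPKM. Endothelium had 8 of 13 higher and none lower, smooth muscle and pericytes 6 of 9 higher and 2 lower, against 20.8% and 19.6% higher among genes of like FPKM. The lower ones were Actg2 and Cnn1 of smooth muscle, at 1.49, 0.118 and 0 FPKM and 1.68, 2.35 and 0.446 FPKM. Decidua had 11 of 22 higher and 3 lower (7.33% and 3.42% of genes of like FPKM), but its summed level, 2071, 578 and 1432 FPKM, was highest in wild type, where 1 gene made up most of it. That gene, Prl8a2, codes for the decidual prolactin-related protein and was at 1504 FPKM in wild type, 155 in tw18/+ and 377 in tw18/tw18. The trophoblast giant cell and spongiotrophoblast list had 3 of 11 higher and 2 lower (13.8% and 6.23% of genes of like FPKM), with sums of 525, 484 and 915 FPKM. Uterine epithelium had 2 of 8 higher (11.7% of genes of like FPKM) and none lower, with sums of 675, 639 and 1123 FPKM. The largest part of that sum was Spink3, at 424, 402 and 736 FPKM, which the visceral endoderm list also holds. Of the other members, Calb1 was at 0 in all libraries, and Ltf and Sprr2f were at 0 in wild type and tw18/+ and under 1 FPKM in tw18/tw18. Blood was thinly covered, with 7 of 17 myeloid, 5 of 18 lymphoid and 6 of 13 erythroid genes measured. Of the myeloid genes 3 were higher (20.7% of genes of like FPKM) and none lower. Of the lymphoid genes 3 were higher and 1 lower (34.8% and 15.7% of genes of like FPKM). Of the erythroid genes, mostly globins, 4 were higher and 1 lower (10.2% and 5.06% of genes of like FPKM). No stromal marker was at 0 in any library, and Lum and Twist2, the least abundant in wild type and tw18/+, were at 0.907, 1.02 and 2.59 FPKM and 0.993, 0.277 and 1.39 FPKM. The part that such tissue had in the groups described next was not tested.

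Taking the 322 abundant genes that reached 200 FPKM in wild type or tw18/tw18, 14 were higher and 7 lower. Of the 14 only Gpx3 and S100a6 reached 200 FPKM in wild type. The others entered only through tw18/tw18, where they were higher. Among the 273 genes with a mean FPKM of at least 200, 2.56% were higher and 1.83% lower, against 15.1% and 6.94% of all genes. Gpx3, the secreted glutathione peroxidase, was at 935 FPKM in wild type, 884 in tw18/+ and 2699.9 in tw18/tw18 and went from rank 75 to rank 2 among all genes of its library. Genes of 3 proteins of the S100 family were among the 14. S100a6 was at 221 FPKM in wild type, 176 in tw18/+ and 519.9 in tw18/tw18, S100a11 at 138 FPKM in wild type, 130.5 in tw18/+ and 441 in tw18/tw18 and S100a10 at 101 FPKM in wild type, 119 in tw18/+ and 208 in tw18/tw18. In each the tw18/+ value was near that of wild type and the tw18/tw18 value stood apart. Ly6a, the cell surface protein Sca-1, was at 67.4 FPKM in wild type, 93.7 in tw18/+ and 387 in tw18/tw18. Sparc, a collagen-binding matrix protein, was at 136 FPKM in wild type, 159.6 in tw18/+ and 358 in tw18/tw18, and Des, the muscle intermediate filament protein desmin, at 45.5 FPKM in wild type, 65.9 in tw18/+ and 201 in tw18/tw18. The metallothioneins Mt1 and Mt2, which bind zinc and copper, were at 154, 181 and 363 FPKM and 91.3, 166 and 292 FPKM. For Mt2 the tw18/+ value lay about midway between the others on a log scale. Tmsb4x, the actin-binding thymosin beta 4, was at 68.2 FPKM in wild type, 61.8 in tw18/+ and 222 in tw18/tw18. Plac8 and Srgn, the proteoglycan serglycin, were at 54.7, 79.7 and 210.5 FPKM and 85.9, 133 and 265 FPKM. The last 2 of the 14 were the nuclear RNA Malat1, at 160.4, 134.2 and 328 FPKM, and Rpl34, at 107, 87.8 and 227 FPKM, the only higher gene of a cytosolic ribosomal protein with an FPKM of at least 200.

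The abundant lower genes described here were of 2 kinds by their level in tw18/+. Dnmt3b, the de novo DNA methyltransferase of the epiblast, was at 719 FPKM in wild type, 733 in tw18/+ and 359 in tw18/tw18, and Pou5f1, which codes for the pluripotency factor Oct4 and itself lies on chromosome 17, at 628 FPKM in wild type, 721 in tw18/+ and 274 in tw18/tw18. Nasp, a histone chaperone, was at 261 FPKM in wild type, 255 in tw18/+ and 129.9 in tw18/tw18. In these 3 genes the tw18/+ library lay within 1.2-fold of wild type. At the same FPKM sum their log2 ratios, in the order given, are -0.79, -0.99 and -0.80, short of 2-fold. In tw18/+ Lars2 also lay within 1.2-fold of wild type, while Prl8a2 and Timp3 did not. Lars2, the mitochondrial leucyl-tRNA synthetase, was the most abundant gene of wild type and tw18/+, at 11199 and 9689 FPKM, and was listed at 0 in tw18/tw18. Timp3, an inhibitor of matrix metalloproteinases, was at 209.8 FPKM in wild type, 22.3 in tw18/+ and 81.9 in tw18/tw18, so that its tw18/tw18 value was the middle one, as was that of Prl8a2.

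**Figure D3:**
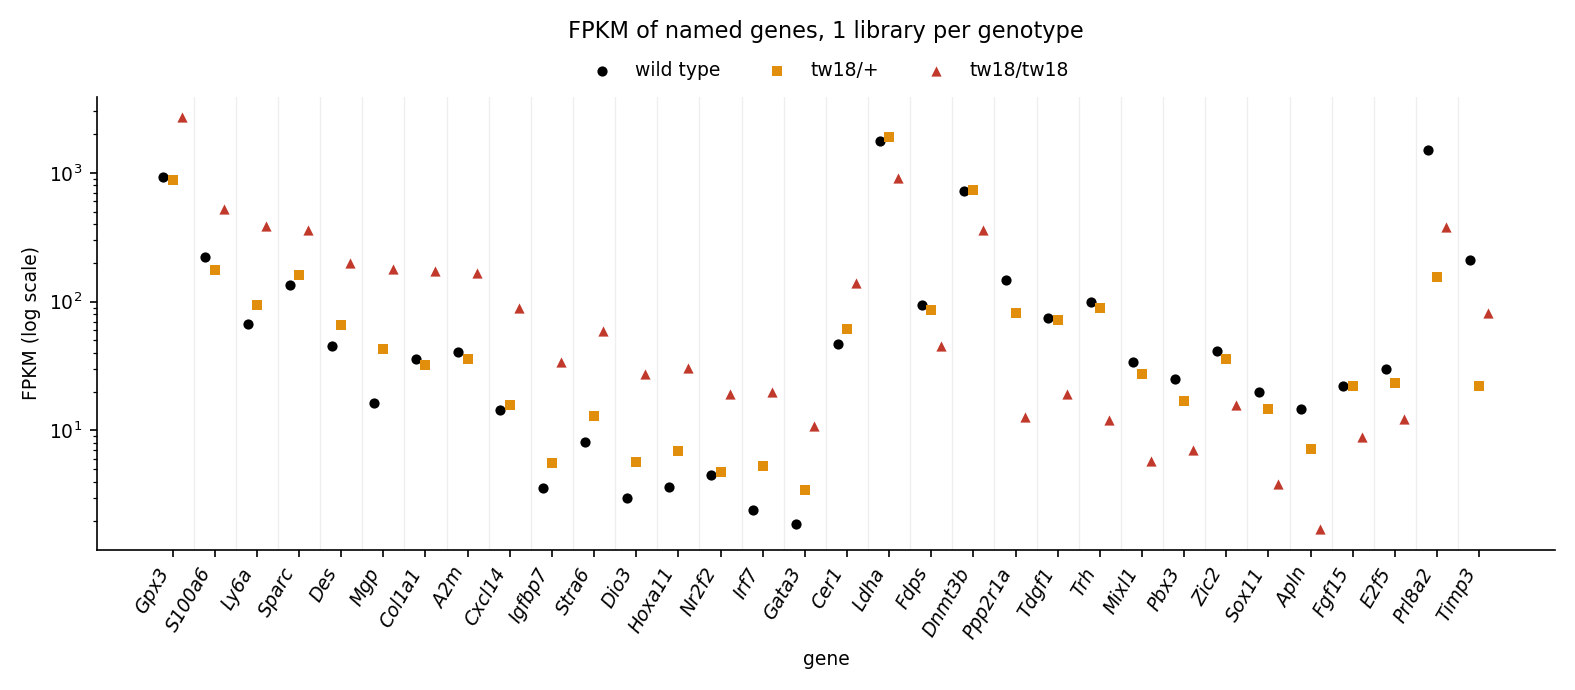
FPKM of 32 named genes on a log scale, with 1 point for each library: wild type (circle), tw18/+ (square) and tw18/tw18 (triangle). From Gpx3 to Cer1 the tw18/tw18 point is the highest of the 3, from Ldha to E2f5 the lowest, and for Prl8a2 and Timp3 it lies between the others.

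Transcription factors were read by family. Over the 630 measured genes of 17 families, 119 were higher and 76 lower, 18.9% and 12.1%, against 15.1% and 6.94% of all genes. The 76 include the 17 Zfp genes of the chromosome 17 stretch. A share among genes of like FPKM was not computed for this class as a whole. The class had a median of -0.05, which is smaller in size than the shift of 0.21 between the scalings. The families differed widely. The Hox genes, which pattern the body axis and the uterus, together with the related Cdx2 and Evx1, had 10 of 11 members higher and none lower, where 22.4% of genes of like FPKM were higher. Hoxa11 was at 3.67 FPKM in wild type, 6.87 in tw18/+ and 30.8 in tw18/tw18, 8.39-fold higher, and Hoxa10 at 7.64 FPKM in wild type, 11.8 in tw18/+ and 32.9 in tw18/tw18. Hoxd10 and Hoxd11 were at 2.90, 4.71 and 19.1 FPKM and 1.66, 2.14 and 13.1 FPKM. These are genes of the 5′ end of their clusters, and the remaining Hox genes measured, such as Hoxd4 at 0, 0.203 and 1.79 FPKM, stayed under 6 FPKM in tw18/tw18. In each of the 11 but Hoxd3 the tw18/+ value lay between the others. Hoxa10 and Hoxa11 also stand in the decidua list.

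Nuclear receptors, ligand-bound transcription factors for steroids, retinoids and lipids, had 15 of 26 members higher and none lower, against 19.5% higher among genes of like FPKM. Nr2f2, which codes for COUP-TFII of stroma and veins, was at 4.50 FPKM in wild type, 4.79 in tw18/+ and 19.1 in tw18/tw18. The oestrogen receptor gene Esr1 was at 2.25 FPKM in wild type, 2.92 in tw18/+ and 8.91 in tw18/tw18 and the progesterone receptor gene Pgr at 5.08 FPKM in wild type, 3.36 in tw18/+ and 11.2 in tw18/tw18. Esrra, an oestrogen-related receptor of mitochondrial gene control, was at 2.58 FPKM in wild type, 5.88 in tw18/+ and 9.91 in tw18/tw18, more than doubled already in tw18/+. The 2 most abundant members in wild type went the other way without reaching 2-fold. Nr6a1, the germ cell nuclear factor that represses Pou5f1, was at 49.5 FPKM in wild type, 48.6 in tw18/+ and 27.96 in tw18/tw18, and Rarg, a retinoic acid receptor, at 39.4 FPKM in wild type, 35.8 in tw18/+ and 23.2 in tw18/tw18.

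The 53 measured genes of other homeobox families were split, with 17 higher and 11 lower (22.2% and 10.1% of genes of like FPKM). The lower ones were led by Mixl1, a gene of the streak, at 33.9 FPKM in wild type, 27.5 in tw18/+ and 5.76 in tw18/tw18. Pbx3, a partner protein of Hox factors, was at 24.995 FPKM in wild type, 17.01 in tw18/+ and 7.04 in tw18/tw18, and Vax1, known from the eye and forebrain, was at 2.21 FPKM in wild type and listed at 0 in the other libraries. Among the higher ones were Emx2, a gene of the urogenital tract, at 1.45 FPKM in wild type, 2.89 in tw18/+ and 9.96 in tw18/tw18, Meis1, another Hox partner, at 0.736 FPKM in wild type, 1.37 in tw18/+ and 5.30 in tw18/tw18, and Prrx1, a gene of mesenchyme, at 0.74 FPKM in wild type, 0.813 in tw18/+ and 3.42 in tw18/tw18. None of these 3 reached 10 FPKM. The homeobox genes Hhex and Hesx1 of the anterior visceral endoderm list were higher and did, at 7.16, 7.79 and 19.1 FPKM and 3.18, 2.78 and 11.3 FPKM.

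Among the smaller families, all 5 Gata genes had a positive difference and 3 were higher (11.4% of genes of like FPKM). Gata3, a factor of trophoblast, was at 1.89 FPKM in wild type, 3.45 in tw18/+ and 10.8 in tw18/tw18, and Gata4, a factor of endoderm, was the most abundant at 25.95 FPKM in wild type, 23.02 in tw18/+ and 46.4 in tw18/tw18, short of 2-fold. STAT and IRF factors, which act below cytokines and interferon, had 5 of 13 higher (16.8% of genes of like FPKM) and none lower. Irf7 was at 2.42 FPKM in wild type, 5.29 in tw18/+ and 20.01 in tw18/tw18 and Stat3 at 7.44 FPKM in wild type, 8.38 in tw18/+ and 20.03 in tw18/tw18, and in both the tw18/+ value was nearer to wild type than to tw18/tw18. The bZIP family had 11 of 39 higher and 3 lower (16.98% and 7.74% of genes of like FPKM), led by Fosl2, an AP-1 subunit, at 5.66 FPKM in wild type, 5.29 in tw18/+ and 22.9 in tw18/tw18, and Nfil3, a repressor of the same family, at 5.02 FPKM in wild type, 7.26 in tw18/+ and 16.9 in tw18/tw18. Within the ETS family Fli1 and Ets1, factors of endothelium and blood, were at 0.469, 1.02 and 4.27 FPKM and 1.80, 2.77 and 6.51 FPKM, while Etv2, which starts the endothelial lineage, was at 1.87 and 1.98 FPKM in wild type and tw18/+ and listed at 0 in tw18/tw18.

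Of the Zic, Gli and Snail group, 3 of 12 were lower and 3 higher, against 8.12% and 17.5% of genes of like FPKM, and the lower ones were Zic2 at 41.2 FPKM in wild type, 36.1 in tw18/+ and 15.6 in tw18/tw18, Zic5 at 15.4, 14.7 and 5.03 FPKM and Gli2, an effector of hedgehog signals, at 5.38, 4.14 and 1.78 FPKM. Of 11 Sox genes 2 were higher and 2 lower (18.7% and 8.38% of genes of like FPKM). Sox11, a factor of neural progenitors, was at 19.9 FPKM in wild type, 14.7 in tw18/+ and 3.88 in tw18/tw18, and Foxd3, which maintains pluripotent cells, at 13.5 FPKM in wild type, 10.4 in tw18/+ and 3.78 in tw18/tw18. The tw18/+ values of Sox11 and Foxd3 lay between the others. The neuroectoderm list read above had a median of 0.03. In the group of E2F and DP factors, which drive genes of S phase, 1 of 10 was lower (4.40% of genes of like FPKM) and none higher. That gene was E2f5, at 30.1 FPKM in wild type, 23.2 in tw18/+ and 12.3 in tw18/tw18, and E2f4, the most abundant, was at 135 FPKM in wild type, 156 in tw18/+ and 81.3 in tw18/tw18. The Tead factors, partners of YAP, diverged. Tead4 of trophoblast, Tead1 and Tead3 were higher, at 6.23, 5.42 and 14.9 FPKM, 19.7, 20.7 and 39.4 FPKM and 4.23, 6.54 and 13.3 FPKM, while Tead2, the most abundant of them in all 3 libraries, was at 149 FPKM in wild type, 147 in tw18/+ and 84.6 in tw18/tw18.

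The Zfp zinc finger genes, most of which code for repressors of the KRAB type, were the largest group. The median of the 311 measured, -0.16, turns to 0.01 at the same FPKM sum. Among them 25 were higher and 42 lower, where 19.4% and 8.88% of genes of like FPKM were. Of the lower ones 17 came from the stretch of chromosome 17 described above, and among the 294 outside it 25 were higher and 25 lower, 8.50% each, against 15.1% and 6.94% of all genes. At the same FPKM sum 36 of the 311 were higher and 30 lower.

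Secreted proteins held a larger share of higher genes than any other class read, 140 of 314 (44.6%), with 39 lower (12.4%), against 15.1% and 6.94% of all genes. Their median was 0.67. For this class as a whole, too, no share among genes of like FPKM was computed. Collagens had 16 of 24 genes higher and none lower, against 21.4% higher among genes of like FPKM. The chains of type I and III collagen of loose connective tissue had the widest differences. Col3a1 was at 5.44 FPKM in wild type, 5.58 in tw18/+ and 31.9 in tw18/tw18 and Col1a2 at 7.29 FPKM in wild type, 6.63 in tw18/+ and 35.5 in tw18/tw18, so that, as in Col1a1, tw18/+ was level with wild type. The basement membrane chains Col4a1 and Col4a2 were more abundant and just past 2-fold, at 86.8, 94.0 and 174 FPKM and 38.6, 40.7 and 78.2 FPKM. Col18a1, a basement membrane collagen of epithelia, was 1 of the 2 with a negative difference, at 53.2, 49.6 and 44.1 FPKM.

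Matrix glycoproteins and proteoglycans had 23 of 40 members higher and 3 lower (17.2% and 7.93% of genes of like FPKM). Besides Mgp, the higher ones included Mfap5, a component of elastic microfibrils, at 3.34 FPKM in wild type, 7.10 in tw18/+ and 29.8 in tw18/tw18, Emilin1, a glycoprotein of elastic fibres, at 2.51 FPKM in wild type, 4.58 in tw18/+ and 19.3 in tw18/tw18, and Sparcl1, a relative of Sparc, at 0.093 FPKM in wild type, 1.33 in tw18/+ and 7.57 in tw18/tw18. Vcan, a large proteoglycan, was at 5.11 FPKM in wild type, 6.15 in tw18/+ and 27.9 in tw18/tw18, and Dcn, the collagen-binding decorin, at 3.996 FPKM in wild type, 3.15 in tw18/+ and 17.8 in tw18/tw18. Fibronectin, Fn1, was near level at 39.2, 30.4 and 43.7 FPKM. Laminins and nidogens of basement membranes had 6 of 10 higher (13.5% of genes of like FPKM) and none lower, with Lamb2 at 8.56, 7.46 and 33.5 FPKM, Lama1 at 18.1, 31.4 and 51.5 FPKM and Lamc1, the most abundant in wild type, at 62.9, 82.5 and 156 FPKM. The stromal and parietal endoderm sums given above were highest in tw18/tw18 as well, and those lists share genes with these groups.

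**Figure D4:**
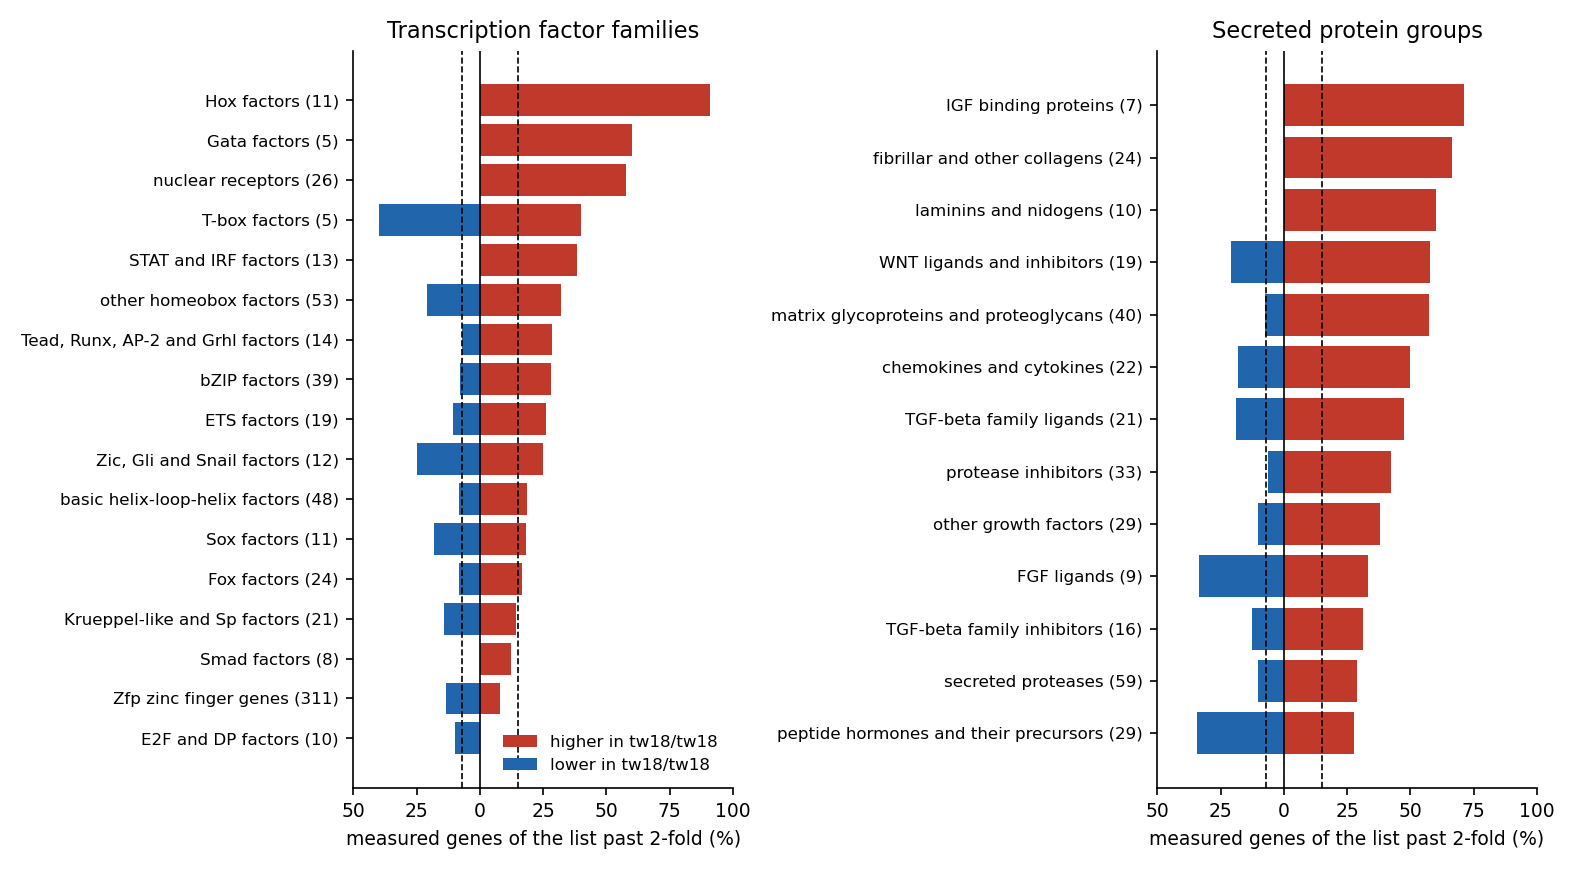
For each transcription factor family (left) and group of secreted proteins (right) the bars give the percentage of measured genes at least 2-fold higher (red, to the right) or lower (blue, to the left) in tw18/tw18, with the number measured in brackets. Dashed lines mark the 15.1% and 6.94% of all genes. Hox genes, Gata genes, nuclear receptors, IGF binding proteins, collagens and laminins have no blue bar.

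Binding proteins of insulin-like growth factors had 5 of 7 genes higher (12.7% of genes of like FPKM) and none lower. Igfbp7 was at 3.56 FPKM in wild type, 5.56 in tw18/+ and 33.97 in tw18/tw18, Igfbp3 at 35.2 FPKM in wild type, 39.9 in tw18/+ and 96.5 in tw18/tw18 and Igfbp4 at 25.5 FPKM in wild type, 37.4 in tw18/+ and 81.1 in tw18/tw18. The most abundant of them in wild type, Igfbp2, went the other way and missed the threshold, at 135 FPKM in wild type, 140.4 in tw18/+ and 71.8 in tw18/tw18. Their ligands were higher too, with Igf2 at 47.5 FPKM in wild type, 42.0 in tw18/+ and 107 in tw18/tw18 and Igf1 at 2.22 FPKM in wild type, 3.09 in tw18/+ and 14.8 in tw18/tw18.

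The WNT ligands and their inhibitors had 11 of 19 genes higher and 4 lower, against 23.7% and 10.8% among genes of like FPKM. Secreted frizzled-related proteins bind WNTs outside the cell, and 3 of their genes were higher. Sfrp5, a marker of anterior visceral endoderm, was at 19.1 FPKM in wild type, 19.6 in tw18/+ and 64.4 in tw18/tw18, Sfrp1 at 37.5 FPKM in wild type, 48.3 in tw18/+ and 84.5 in tw18/tw18 and Sfrp4, a gene of decidual stroma, at 6.76 FPKM in wild type, 8.64 in tw18/+ and 33.7 in tw18/tw18. Wnt4, the WNT of decidua and kidney, was at 1.69 FPKM in wild type, 3.32 in tw18/+ and 11.2 in tw18/tw18, and Wnt6 at 0.49 FPKM in wild type, 1.76 in tw18/+ and 5.55 in tw18/tw18. The lower ones, 2 at the same FPKM sum, were under 6 FPKM in every library. Wnt2b and Wnt8a were at 1.78 and 1.14 FPKM in wild type and both listed at 0 in tw18/tw18, and Frzb, another gene of the frizzled-related kind, was at 5.56, 2.66 and 2.54 FPKM. Wnt3, which also stands in the primitive streak list, was just past the threshold, at 5.16, 3.38 and 2.54 FPKM.

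TGF-beta family ligands had 10 of 21 genes higher and 4 lower (25.1% and 11.4% of genes of like FPKM). Gdf1, a partner of Nodal in left-right and mesendoderm signalling, was the lower gene with the largest difference, at 9.99 FPKM in wild type, 5.34 in tw18/+ and 1.04 in tw18/tw18, and Lefty2 of nascent mesoderm and decidua was at 7.50, 4.004 and 0.784 FPKM. Higher were Bmp8b of extra-embryonic ectoderm, at 0.936, 1.25 and 5.43 FPKM, Tgfb1 at 1.97, 2.23 and 5.75 FPKM and Tgfb3 at 0.406, 0.613 and 2.33 FPKM. Of 16 inhibitors and modulators of these ligands 5 were higher and 2 lower (19.2% and 8.91% of genes of like FPKM), and Nbl1, a BMP antagonist related to Cer1, was at 15.2 FPKM in wild type, 11.5 in tw18/+ and 41.2 in tw18/tw18. In the FGF list of 9, 3 were lower and 3 higher, against 8.13% and 17.8% of genes of like FPKM. Fgf15, a marker of early neural tissue and epiblast, was at 22.2 FPKM in wild type, 21.96 in tw18/+ and 8.98 in tw18/tw18, and Fgf5, the most abundant FGF gene, at 72.98 FPKM in wild type, 70.3 in tw18/+ and 53.02 in tw18/tw18. Fgf4, the FGF of inner cell mass and streak that sustains trophoblast stem cells, was higher, at 3.85 FPKM in wild type, 3.92 in tw18/+ and 7.76 in tw18/tw18.

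Among peptide hormones and their precursors the lower genes outnumbered the higher ones, with 8 of 29 higher and 10 lower (16.1% and 7.48% of genes of like FPKM). Trh, the precursor of thyrotropin-releasing hormone, was at 100.04 FPKM in wild type, 89.0 in tw18/+ and 12.1 in tw18/tw18, 8.30-fold lower. Apln, the ligand of the apelin receptor of early mesoderm and vessels, was at 14.6 FPKM in wild type, 7.13 in tw18/+ and 1.71 in tw18/tw18. Tac2, a tachykinin precursor, was at 43.6 FPKM in wild type, 26.3 in tw18/+ and 111 in tw18/tw18 and Penk, the precursor of enkephalins, at 6.51 FPKM in wild type, 6.13 in tw18/+ and 19.9 in tw18/tw18. The prolactin family was split. Prl8a2 and Prl3c1 of decidua, at 1504, 155 and 377 FPKM and 121, 13.2 and 25.2 FPKM, were highest in wild type and lowest in tw18/+, whereas Prl3d1, Prl3d2 and Prl3d3, placental lactogen genes of trophoblast giant cells, were lowest in tw18/+ and highest in tw18/tw18, at 113, 61.5 and 202 FPKM, 30.3, 14.004 and 73.3 FPKM and 40.7, 22.9 and 82.8 FPKM. The 3 Prl3d genes are near-identical copies, so the split between them is uncertain.

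Among chemokine genes Cxcl14, which codes for a chemokine of epithelia and stroma, was at 14.4 FPKM in wild type, 15.9 in tw18/+ and 88.8 in tw18/tw18, while Cxcl12, which guides migrating cells through Cxcr4, was at 21.2 FPKM in wild type, 14.1 in tw18/+ and 7.32 in tw18/tw18. Mif, the most abundant cytokine gene, was at 1140.1 FPKM in wild type, 1109.6 in tw18/+ and 651 in tw18/tw18. Over the group of chemokines and cytokines, 11 of 22 were higher and 4 lower (32.8% and 14.8% of genes of like FPKM), and all the higher ones but Cxcl14 were under 4 FPKM in tw18/tw18. Protease inhibitors and secreted proteases held more higher than lower genes. The inhibitors had 14 of 33 higher and 2 lower (14.6% and 6.70% of genes of like FPKM). A2m, alpha-2-macroglobulin, was at 40.8 FPKM in wild type, 36.02 in tw18/+ and 166 in tw18/tw18, Serpinb6b at 15.97 FPKM in wild type, 19.3 in tw18/+ and 65.6 in tw18/tw18, and Serpinh1, the collagen chaperone Hsp47, at 71.1 FPKM in wild type, 82.1 in tw18/+ and 159 in tw18/tw18. Among secreted proteases, 17 of 59 were higher and 6 lower (19.8% and 9.05% of genes of like FPKM), with Adamts9 at 7.09, 8.13 and 19.3 FPKM, Adam12 at 2.83, 2.28 and 13.1 FPKM and Mmp2, gelatinase A, at 9.50, 12.6 and 20.2 FPKM. The growth factor genes Vegfa, Ptn and Pdgfc were higher, at 11.8, 10.99 and 28.2 FPKM, 6.23, 6.03 and 25.9 FPKM and 3.32, 5.51 and 17.9 FPKM, and Vegfb was lower, at 32.1, 23.9 and 15.3 FPKM.

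Of 506 measured metabolic genes 62 were higher and 25 lower, 12.3% and 4.94%, against 15.1% and 6.94% of all genes. Among genes of like FPKM to each metabolic list, the share higher ran from 3.72% (respiratory chain complex I) to 17.5% (thyroid hormone, retinoids and steroids). Such a share was not computed for the metabolic class as a whole. Glycolysis had the lowest median of the metabolic lists, -0.54, and stayed negative at -0.33 with both libraries scaled to the same sum. Of its 18 genes 15 had a negative difference, and 3 were lower (3.92% of genes of like FPKM) and none higher. Ldha, which turns pyruvate into lactate, was at 1759 FPKM in wild type, 1899.6 in tw18/+ and 908 in tw18/tw18, just short of 2-fold. Gapdh, the most abundant gene of the list, was at 2527 FPKM in wild type, 2849 in tw18/+ and 1769 in tw18/tw18, Pgk1, which makes ATP in the pathway, at 682 FPKM in wild type, 688 in tw18/+ and 372 in tw18/tw18 and the aldolase gene Aldoa at 877 FPKM in wild type, 985 in tw18/+ and 575 in tw18/tw18. In each of these 4 the tw18/+ value was at or above that of wild type. The 3 genes past the threshold were Ldhb at 95.4, 86.1 and 46.5 FPKM, Eno3 at 12.3, 15.1 and 3.91 FPKM and Aldoc at 3.19, 4.91 and 1.01 FPKM, of which Ldhb falls short at the same FPKM sum. Genes of similar abundance were also below 0, since the median difference was -0.29 for a mean FPKM of 100 to 200 and -0.37 for at least 200. Slc16a3, the exporter of lactate, was at 147 FPKM in wild type, 134.2 in tw18/+ and 75.4 in tw18/tw18, and Slc16a1, the other main lactate carrier, at 159.6 FPKM in wild type, 148 in tw18/+ and 267 in tw18/tw18.

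Cholesterol synthesis came next, with a median of -0.47 (-0.28 after scaling to the same sum), 18 of 22 genes negative, 3 lower (3.83% of genes of like FPKM) and none higher. All 3 fall short of 2-fold at the same FPKM sum. Fdps, which makes farnesyl pyrophosphate, was at 93.4 FPKM in wild type, 86.3 in tw18/+ and 45.04 in tw18/tw18. Fdft1, the first enzyme of the sterol branch, was at 27.6 FPKM in wild type, 26.7 in tw18/+ and 13.6 in tw18/tw18, and Sc4mol, a sterol C4-methyl oxidase, at 25.4 FPKM in wild type, 18.9 in tw18/+ and 11.1 in tw18/tw18. For these genes tw18/+ lay below wild type but nearer to it than to tw18/tw18. Nucleotide synthesis had a median of -0.35, with 2 of 35 higher and 2 lower (7.44% and 3.67% of genes of like FPKM). At the same FPKM sum 3 were higher and 0 lower. Prps1, which makes the ribose donor, was at 47.9 FPKM in wild type, 41.4 in tw18/+ and 21.05 in tw18/tw18. Dut, which removes dUTP, was at 99.6 FPKM in wild type, 107 in tw18/+ and 48.5 in tw18/tw18. Paics of purine synthesis, short of 2-fold, was at 257 FPKM in wild type, 283 in tw18/+ and 146 in tw18/tw18. Rrm2, a subunit of ribonucleotide reductase, had a positive difference, at 219.8 FPKM in wild type, 211 in tw18/+ and 294 in tw18/tw18.

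Few genes of respiration were past the threshold, as was also true of genes of like FPKM. None of 36 complex I genes was past 2-fold in either direction (3.72% higher and 2.04% lower among genes of like FPKM). Their median of -0.12 turns to 0.09 with both libraries scaled to the same sum. The citrate cycle list, with a median of -0.11 that also turns positive on that scale, had 1 of 31 genes higher (6.79% of genes of like FPKM). That gene was Pcx, pyruvate carboxylase, at 2.55 FPKM in wild type, 6.08 in tw18/+ and 10.9 in tw18/tw18. ATP synthase had a median of -0.25 (-0.04 at the same FPKM sum), with 14 of 17 genes negative and 1 higher (4.55% of genes of like FPKM). Complexes III and IV had 19 of 24 genes negative and 2 higher (5.50% of genes of like FPKM), and their median of -0.16 turns to 0.04 at the same FPKM sum. Fatty acid oxidation had 22 of 29 genes positive and a median of 0.36, with Cpt1a, the gate of mitochondrial import, at 3.05 FPKM in wild type, 2.88 in tw18/+ and 7.87 in tw18/tw18 and Acaa2 at 23.1 FPKM in wild type, 18.7 in tw18/+ and 42.4 in tw18/tw18. Of 32 genes of lipid transport 8 were higher and 2 lower (14.1% and 6.44% of genes of like FPKM). Fabp3 was at 11.1 FPKM in wild type, 18.96 in tw18/+ and 37.2 in tw18/tw18 and Fabp5, a fatty acid-binding protein of epidermis, at 119 FPKM in wild type, 128.7 in tw18/+ and 55.3 in tw18/tw18. Apolipoprotein genes, which visceral endoderm expresses, differed by level. Apoe and Apoa1, the most abundant, did not reach 2-fold, at 258, 245.6 and 388 FPKM and 245.8, 233 and 337 FPKM. Apoa2, Apoc3 and Apoc1 did, at 0.695, 7.17 and 6.71 FPKM, 0.553, 2.47 and 4.78 FPKM and 12.5, 16.8 and 25.1 FPKM, and Apoa2 was highest in tw18/+.

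Enzymes and carriers for thyroid hormone, retinoids and steroids had 12 of 41 genes higher and 3 lower (17.5% and 7.93% of genes of like FPKM). Dio3, which inactivates thyroid hormone and is imprinted, was at 2.98 FPKM in wild type, 5.69 in tw18/+ and 27.5 in tw18/tw18. Stra6, the membrane receptor that takes up retinol, was at 8.16 FPKM in wild type, 12.9 in tw18/+ and 59.0 in tw18/tw18. Hsd3b6 and Cyp11a1, which act in the making of progesterone from cholesterol, were at 0.884 FPKM in wild type, 4.32 in tw18/+ and 12.3 in tw18/tw18 and at 21.2 FPKM in wild type, 19.1 in tw18/+ and 71.8 in tw18/tw18. Aldh1a2, the enzyme that makes retinoic acid, was at 7.29 FPKM in wild type, 8.27 in tw18/+ and 22.1 in tw18/tw18, and Crabp1, a retinoic acid-binding protein, was lower, at 6.06, 6.37 and 2.46 FPKM. Dio3 and Cyp11a1 also stand in the decidua list and Stra6 in the parietal endoderm list. Of the creatine genes Gatm, the first enzyme of creatine synthesis, was at 27.3 FPKM in wild type, 23.8 in tw18/+ and 79.0 in tw18/tw18 and Slc6a8, the creatine carrier, at 16.2 FPKM in wild type, 14.2 in tw18/+ and 44.7 in tw18/tw18. Sms, which makes spermine, was lower, at 58.8 FPKM in wild type, 58.8 in tw18/+ and 26.9 in tw18/tw18, but not at the same FPKM sum.

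**Figure D5:**
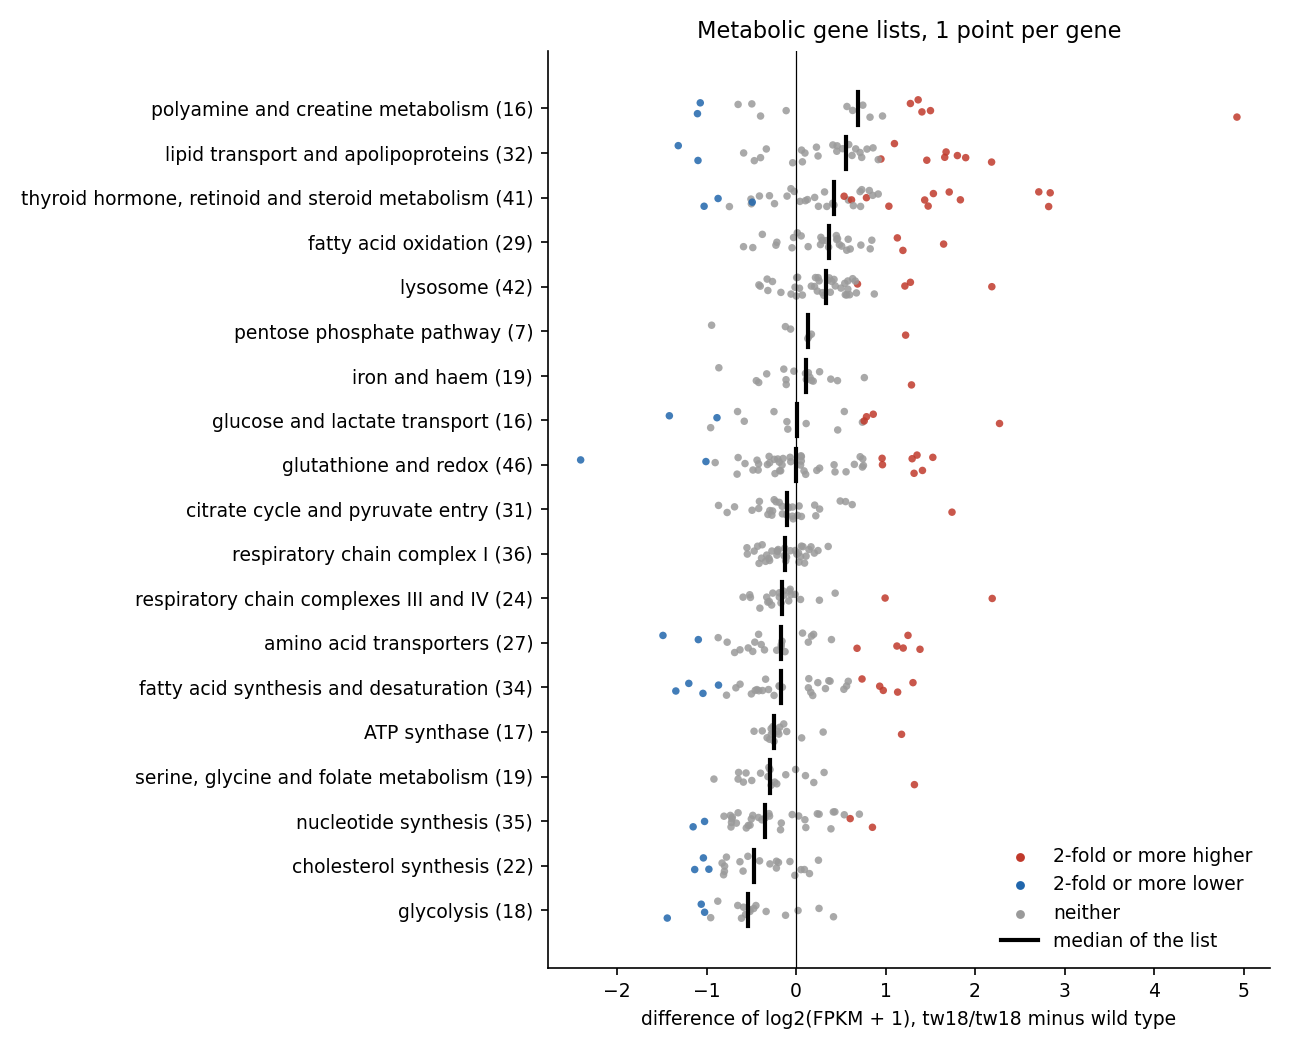
Each point is 1 gene of a metabolic list (number measured in brackets), placed by its difference of log2(FPKM + 1), tw18/tw18 minus wild type. Red and blue points are at least 2-fold higher or lower by the FPKM ratio, and black bars are medians, from -0.54 for glycolysis at the bottom to 0.69 for polyamine and creatine metabolism at the top, whose point farthest to the right is Amd1.

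Genes of protein synthesis and cell division lay below 0 with few past the threshold. Cytosolic ribosomal protein genes had a median of -0.39, near the -0.37 of all genes with a mean FPKM of at least 200. Of them 4 of 82 were higher and none lower (3.11% and 2.01% of genes of like FPKM). Mitochondrial ribosomal protein genes had a median of -0.32, and of 76 3 were lower (2.45% of genes of like FPKM), 0 at the same FPKM sum. Among the 3 was Mrpl18, on proximal chromosome 17, at 117, 93.1 and 51.2 FPKM. The replication list had a median of -0.40, with 44 of 48 genes negative. Pcna, the clamp of DNA polymerase, was at 336 FPKM in wild type, 362 in tw18/+ and 192 in tw18/tw18 and Mcm6, a subunit of the replicative helicase, at 123.04 FPKM in wild type, 121 in tw18/+ and 67.3 in tw18/tw18. After scaling to the same sum these medians were -0.18, -0.12 and -0.20.

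Clustered histone genes, whose transcripts are made in S phase, had 23 of 58 members lower and 2 higher, where 5.13% of genes of like FPKM were lower. At the same FPKM sum 13 were lower. Hist1h2bb was at 85.1 FPKM in wild type, 62.8 in tw18/+ and 32.0 in tw18/tw18 and Hist2h3b at 89.3 FPKM in wild type, 51.9 in tw18/+ and 39.5 in tw18/tw18. Hist1h4k was at 27.2 FPKM in wild type, 12.1 in tw18/+ and 5.85 in tw18/tw18. In each the tw18/+ value lay between the others. The window of chromosome 13 with the main histone cluster had 22 of 73 genes lower, the second highest share of any window. Histone genes of 1 type are near copies of each other, so values of single genes are uncertain.

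The list of Trp53 and genes it induces had 10 of 24 higher and none lower, against 12.3% among genes of like FPKM. Ccng1, cyclin G1, was at 19.7 FPKM in wild type, 37.8 in tw18/+ and 94.6 in tw18/tw18. Cdkn1a, the inhibitor p21 of the cell cycle, was at 5.88 FPKM in wild type, 7.11 in tw18/+ and 27.3 in tw18/tw18, Phlda3, an inhibitor of AKT, at 6.32 FPKM in wild type, 11.9 in tw18/+ and 36.5 in tw18/tw18 and Plk2 at 0.646 FPKM in wild type, 2.13 in tw18/+ and 13.8 in tw18/tw18. Both the wild-type and the tw18/+ values of these genes were under 40 FPKM, with tw18/+ the higher of the 2. Trp53 itself was at 181 FPKM in wild type, 176 in tw18/+ and 122.9 in tw18/tw18, and Bax and Mdm2 did not reach 2-fold, at 58.1, 54.8 and 61.1 FPKM and 26.6, 30.3 and 47.3 FPKM. Immediate early genes had 11 of 23 higher (17.3% of genes of like FPKM) and none lower, among them Zfp36, which destabilises cytokine mRNAs, at 10.3 FPKM in wild type, 11.96 in tw18/+ and 26.8 in tw18/tw18, Klf4 at 3.54 FPKM in wild type, 3.29 in tw18/+ and 9.87 in tw18/tw18 and Fos, an AP-1 subunit, at 1.66, 1.73 and 3.59 FPKM. Egr1, another factor of the first wave, was near level between wild type and tw18/tw18, at 3.28, 0.962 and 3.62 FPKM. Dusp6, a target of FGF and ERK signals in the same list, had its lowest value in tw18/tw18, at 36.9 FPKM in wild type, 32.5 in tw18/+ and 19.7 in tw18/tw18.

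Of 38 actomyosin and smooth muscle genes 13 were higher and 3 lower (10.99% and 5.11% of genes of like FPKM), with Csrp1, a LIM protein of smooth muscle, at 45.8, 49.3 and 103 FPKM, Tagln at 3.33, 4.90 and 11.9 FPKM and Acta2 at 1.38, 1.37 and 6.995 FPKM, while Actb and Actg1 were near level, at 1544, 1536 and 1758 FPKM and 1739, 1772 and 1553 FPKM. Ahnak, a very large scaffold protein, was at 4.71 FPKM in wild type, 4.99 in tw18/+ and 36.5 in tw18/tw18, and Ano1, a calcium-activated chloride channel, at 3.59 FPKM in wild type, 7.19 in tw18/+ and 36.8 in tw18/tw18. Of 7 keratin genes 3 were higher and none lower (21.1% of genes of like FPKM were higher). Among those of simple epithelia, Krt8 and Krt18 did not reach 2-fold, with Krt8 at 74.5, 75.6 and 126 FPKM and Krt18 at 119, 108 and 186 FPKM, and Krt19 passed it, at 15.2, 22.2 and 40.3 FPKM. E-cadherin, Cdh1, was level at 125, 142 and 133 FPKM.

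Some of the widest differences lay in genes of no list. Rps6ka2, a ribosomal S6 kinase gene of proximal chromosome 17, was at 22.8 FPKM in wild type, 10.6 in tw18/+ and 3.68 in tw18/tw18. Socs2, a feedback inhibitor of cytokine and growth hormone signals, was at 26.3 FPKM in wild type, 35.0 in tw18/+ and 5.05 in tw18/tw18. Rragb, a GTPase that links amino acids to mTORC1, was at 19.6 FPKM in wild type, 20.8 in tw18/+ and 4.46 in tw18/tw18, and Vash2, an angiogenesis gene related to vasohibin, at 10.1 FPKM in wild type, 6.003 in tw18/+ and 1.86 in tw18/tw18. Among further higher genes, Ptges, a prostaglandin E synthase, was at 1.41 FPKM in wild type, 3.48 in tw18/+ and 14.1 in tw18/tw18, Sqrdl, which oxidises sulfide in mitochondria, at 5.01 FPKM in wild type, 7.68 in tw18/+ and 35.6 in tw18/tw18 and Dppa2, a gene of pluripotent and germ cells, at 1.34 FPKM in wild type, 5.21 in tw18/+ and 12.1 in tw18/tw18. Each of these 3 was lowest in wild type and highest in tw18/tw18.

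Several of the largest differences came from genes with a near copy, an overlapping neighbour or a value at or near 0 in 1 library. Hba-a1 was at 52.2 FPKM in wild type, 27.1 in tw18/+ and 0.007 in tw18/tw18 and its near-identical copy Hba-a2 at 0.0201 FPKM in wild type, 26.9 in tw18/+ and 127 in tw18/tw18. Each copy was near 0 in 1 of the libraries where the other was not, so values of single copies are uncertain. Hbb-bs, a beta globin gene with near copies, was at 0.018, 0.555 and 47.6 FPKM. Snurf was at 29.1 FPKM in wild type, 26.3 in tw18/+ and 1.37 in tw18/tw18 and Snrpn, which shares its transcript, at 89.7 FPKM in wild type, 118 in tw18/+ and 67.9 in tw18/tw18. Amd1, S-adenosylmethionine decarboxylase, was at 0.00304 FPKM in wild type, 90.9 in tw18/+ and 29.5 in tw18/tw18, and Atp6v0c, a proton pump subunit, at 0.00253 FPKM in wild type, 13.9 in tw18/+ and 3.57 in tw18/tw18, so for both the wild-type library is the one that stands apart. Actr3, a subunit of the Arp2/3 complex that every cell uses, was listed at 0 in wild type and was at 81.5 and 76.8 FPKM in tw18/+ and tw18/tw18. Cdk8, a kinase of the Mediator complex, was at 44.5 and 34.1 FPKM in wild type and tw18/+ and listed at 0 in tw18/tw18. The other genes at 0 in 1 of the compared libraries and at 10 FPKM or more in the other were Lars2, T, the small nucleolar RNA gene Snord104 and the protease inhibitor gene Spink8. Because genes that every cell uses are listed at 0, a 0 in this table, that of T included, is read here as a listed value with no fold.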

How the data were processed

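The authors made cDNA from RNA of the embryo proper with random hexamers and 14 PCR cycles and sequenced 50-base paired ends. Per the labels, reads were aligned to mm10 with TopHat2 and Bowtie 1.0.0, and Cufflinks 2.2.1 and Cuffdiff gave the deposited FPKM values, 1 column for each genotype. The gene annotation and the number of embryos per library are not given in the sources used here. FPKM keeps no raw counts, so depth and counting errors were estimated from the steps between low values (84.3 to 86.1% of those used lay within 0.2 of a whole fragment number). No pseudocount was used for log2 ratios and 1 was added for differences. Python 3.11.15 with pandas 2.3.3 was used, and the steps were tested on simulated data. Gene positions are from the GRCm38 annotation, and sequences from RefSeq. Members and gene lists were chosen with earlier results of these data known. Genes were named for the 25 widest differences in each direction at 10 FPKM or more, for an FPKM of at least 200 with a 2-fold difference or among the 10 highest, for the 4 widest differences or 2 highest wild-type levels of a list, or for a 0 against at least 10 FPKM. Pgr, Pbx3, Tac2, Penk, Prl3d2, Fabp5, Cyp11a1, Sms, Zfp36, the Rsph3 and Rnaset2 genes and some others were named after their values were seen. Alternatives were another pseudocount, filter, threshold, scaling or reference library. A few genes that the rule names are not reported here.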

Additional observations from a re-analysis of the deposited data

How the results depend on the processing

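With 1 pseudocount added, 1227 genes were higher and 532 lower, and at an FPKM of at least 5 in either library 832 and 382 of 9289. With no filter 4072 and 1825 of 16848 genes were called, and at a log2 ratio of at least 2 744 and 295, each of these settings calling fewer or more genes by construction. A pseudocount of 0.1 gave 1887 and 846, median centring 2033 and 833, and tw18/+ in place of wild type 1910 and 726. At the same FPKM sum 2493 were higher and 631 lower, so that 79.8% of the called genes were higher, against 68.5%. Leaving Lars2 out of that sum, an alternative chosen after seeing the data, gave 2381 and 669. With tw18/+ as the reference, 9 named genes turned, on the log2 scale Actr3 (-0.084), Amd1 (-1.62), Apoa2 (-0.096), Atp6v0c (-1.96), Prl3c1 (0.93), Prl8a2 (1.28), Rnaset2a (-0.18), Rnaset2b (-0.11) and Timp3 (1.88). For these the cause was not tested. At an FPKM of at least 5 the natural killer and lymphoid list held only 1 gene, Eomes, with a difference of -1.04. Eomes also stands in the primitive streak list, so this value is no reading of lymphoid cells. At the same FPKM sum 15 of the 185 named genes past the threshold lost the call, and 13 of 85 list medians turned sign. No paired analysis was possible because each genotype had 1 library. Levels near the value of 3 fragments cannot be ranked.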

Other observations

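Sex-linked genes differed between the libraries. Xist, the RNA of the inactive X chromosome, was at 27.9 FPKM in wild type, 55.2 in tw18/+ and 105 in tw18/tw18. The Y-linked genes Ddx3y, Eif2s3y, Kdm5d and Uty were at 9.19, 8.61 and 2.99 FPKM, 29.2, 21.7 and 8.22 FPKM, 3.94, 2.54 and 0.791 FPKM and 5.96, 5.39 and 1.34 FPKM, and all 4 were lower in tw18/tw18. The sexes of the embryos are not given in the sources used here.

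Of 12316 protein-coding genes 14.4% were higher and 6.57% lower. Of 107 lincRNA genes 33.6% were higher and 13.1% lower, and of 89 antisense genes 33.7% and 15.7%. The 24 snoRNA genes had 8 higher and 14 lower. Among all genes with a mean FPKM under 2, 42.7% were higher and 19.1% lower.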
